A study of Rattus norvegicus with 10 samples.

Results

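The E2F family and its DP partners were followed in cultured cardiomyocytes, the beating muscle cells of the heart, which were taken from newborn rats and overexpressed an activated form of the transcriptional coactivator YAP. The 10 genes were E2f1 to E2f8, Tfdp1 and Tfdp2, taken by gene name from the RNA-seq tables, where each had 1 entry among 39784 gene names. YAP5SA cells received Ad-Xon-YAP5SA, which carries YAP with its inhibitory serines changed to alanine. YAP5SA-S94A cells received Ad-Xon-YAP5SA-S94A, in which a further serine-to-alanine change removes binding to the TEAD transcription factors. Cells of both groups were wild type and grew in medium with fetal bovine serum, and both groups had 2 libraries. The 6 samples profiled by CUT&RUN, among them Ad-GFP controls, were left aside. Since the RNA-seq libraries used hold neither GFP nor untreated cells, a difference between the forms cannot be assigned to either of them. The labels call the libraries biological replicates without saying whether they came from separate cultures, so p-values may measure only technical spread.

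E2F proteins bind the promoters of genes that cells need to copy their DNA. E2F1, E2F2 and E2F3 activate these genes, and the retinoblastoma family of pocket proteins holds them in check until cyclin-dependent kinases phosphorylate it. E2F4 and E2F5 mainly repress together with pocket proteins in resting cells, E2F6 represses without them, and the atypical E2F7 and E2F8 repress late in S phase without a DP partner. E2F1 to E2F6 bind DNA as dimers with DP1 or DP2, the products of Tfdp1 and Tfdp2. Heart muscle cells leave the cell cycle soon after birth, and E2F activity is part of that switch.

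Replicates 1 and 2 held an estimated 5.10 and 4.02 gigabases of aligned reads in YAP5SA and 5.02 and 4.97 gigabases in YAP5SA-S94A. Values are TPM, transcript levels that account for gene length and library size, so levels of different genes can be set side by side. A limit for E2f1, E2f3, Tfdp1 and Tfdp2 is given with the order of levels. All 7 cardiomyocyte markers were expressed and none was at 0, with a summed TPM of 18351 and 18460 in YAP5SA and 17932 and 18001 in YAP5SA-S94A. Of them 1 rose and 5 fell, and the sums were close because the one that rose, the natriuretic peptide gene Nppa, stood at 9625 and 9474 TPM in YAP5SA against 3743 and 3714 TPM in YAP5SA-S94A. Fibroblast genes were abundant as well, with a summed TPM of 8527 and 6748 in YAP5SA and 7243 and 6888 in YAP5SA-S94A over 8 markers, none at 0, of which 0 rose and 2 fell. Of 5 epicardial and mesothelial markers, none at 0, 2 rose and 0 fell, and their sum was 57.1 and 50.2 TPM in YAP5SA against 41.6 and 40.2 in YAP5SA-S94A. Endothelial genes summed to 20.8 and 23.0 TPM in YAP5SA against 32.5 and 31.2 TPM in YAP5SA-S94A, with 1 of 5 tested higher and 1 lower. Smooth muscle and pericyte genes (1 of 6 higher, 1 lower), leukocyte genes (1 of 5 tested higher, 2 lower, Cd3e at 0) and Schwann cell genes (0 of 2 tested called) made up the other lists. The part of these marker shifts in the results below was not tested. In these bulk samples a change in the number of cells of a type and a change in RNA per cell cannot be told apart.

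Of the activators tested, E2f1 alone passed the test. E2f1, the founding activator of the family (chromosome 3, 143064535 to 143075362, minus strand, rn7), was measured at 19.5 and 15.1 TPM with YAP5SA and at 6.18 and 6.18 TPM with YAP5SA-S94A. The YAP5SA-S94A libraries were nearly identical and lay far below both YAP5SA libraries. The mean was 17.3 ± 3.13 TPM in YAP5SA and 6.18 ± 0.0034 TPM in YAP5SA-S94A (SD, n = 2 each), a ratio of 2.80. On the log2(TPM + 1) scale, on which all fold changes below are given as YAP5SA minus YAP5SA-S94A and which understates the change of low genes, E2f1 rose by 1.34 (SE 0.18, limma adjusted p = 0.00141). A gene is said to have risen, fallen or been called when its limma p, adjusted by the Benjamini-Hochberg method over all 13420 tested genes, was under 0.05. The smallest two-sided p that an exact permutation test could reach with 2 libraries a form is 0.333, so the calls depend on limma's pooling of the spread over all tested genes.

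Of the other activators, E2f3 was not called and E2f2 was too low to be tested. E2f3, which controls entry into S phase with E2f1 (chromosome 17, 34601756 to 34679139, plus strand), stood at 11.9 and 11.96 TPM in YAP5SA against 10.2 and 10.2 TPM in YAP5SA-S94A. The groups did not overlap, but the difference was small (log2 fold change 0.21, 95% interval −0.14 to 0.55, limma adjusted p = 0.321). E2f2, the third activator (chromosome 5, 148399193 to 148422595, plus strand), was close to silent, at 1.62 and 0.753 TPM in YAP5SA and 0.587 and 0.771 TPM in YAP5SA-S94A. Its groups overlapped, and its mean of 0.932 TPM lay below the minimum of 1 for testing. With that minimum set to 0.1 its log2 fold change was 0.35 (limma adjusted p = 0.368).

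**Figure D1:**
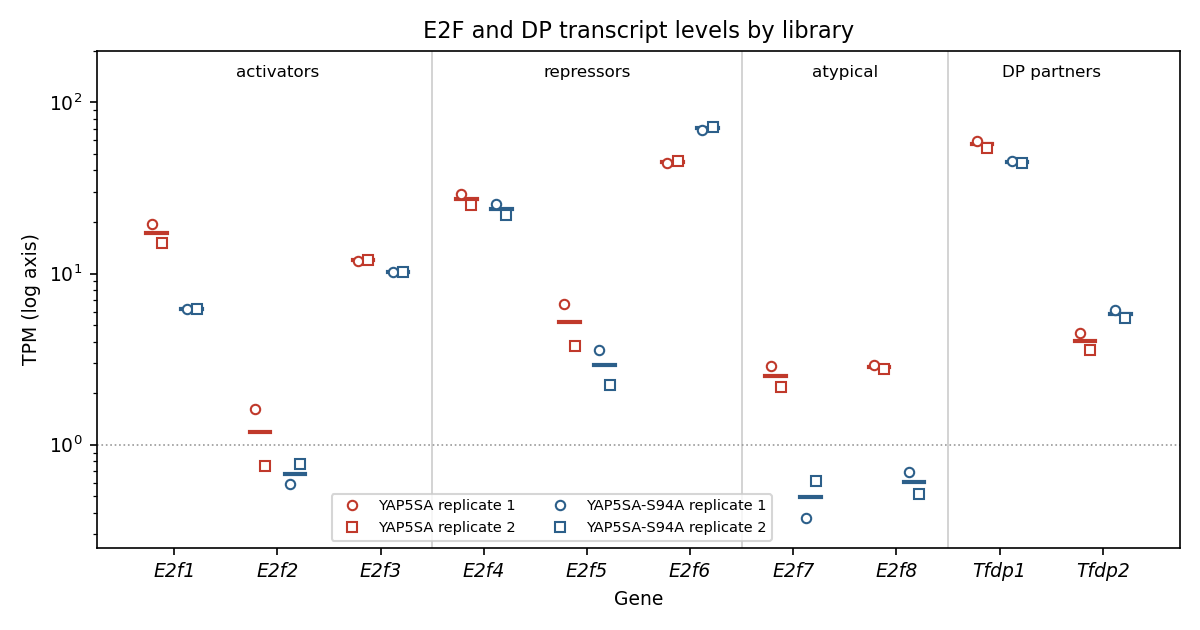
TPM of the 10 genes on a log axis, with a point for each library (circles for replicate 1, squares for replicate 2), a short bar for the group mean, YAP5SA in red left of YAP5SA-S94A in blue, and a dotted line at 1 TPM. E2f1, E2f7 and E2f8 lie higher in both YAP5SA libraries, and E2f6 lies lower.

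Among the repressors, E2f6 moved the opposite way to E2f1, and it was the most abundant E2F transcript in every library. E2f6, which represses without pocket proteins as part of a Polycomb complex (chromosome 6, 39592224 to 39608685, plus strand), stood at 43.97 and 45.1 TPM in YAP5SA against 69.3 and 71.7 TPM in YAP5SA-S94A. The libraries of each form differed by at most 3.47% and the groups were well apart. E2f6 fell by 0.65 on the log2 scale (SE 0.10, limma adjusted p = 0.00315), to 44.5 ± 0.81 TPM in YAP5SA against 70.5 ± 1.73 TPM in YAP5SA-S94A.

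E2f4 and E2f5, the partners of the pocket proteins p107 and p130, were not called. E2f4 (chromosome 19, 33174396 to 33181806, plus strand) stood at 29.0 and 25.2 TPM in YAP5SA and 25.4 and 22.05 TPM in YAP5SA-S94A, and the groups overlapped (log2 fold change 0.19, 95% interval −0.15 to 0.52, limma adjusted p = 0.352). With a library left out its log2 fold change was 0.086 and 0.087 without YAP5SA replicate 1 or YAP5SA-S94A replicate 2, and 0.28 without YAP5SA replicate 2 or YAP5SA-S94A replicate 1. E2f5 (chromosome 2, 86997331 to 87012908, minus strand) stood at 6.60 and 3.75 TPM in YAP5SA and 3.58 and 2.24 TPM in YAP5SA-S94A. Its groups barely separated, and replicate 1 was the higher library in both. The log2 fold change of E2f5 was 0.64 with a 95% interval of −0.056 to 1.34 (limma adjusted p = 0.14). With the replicate numbers of the labels as a block it was called higher (limma adjusted p = 0.0402). E2f5 overlaps the gene Rbis, at 114 TPM over the 4 libraries, by 22 bases on the opposite strand, and E2f4 overlaps Lrrc29, at 0.711 TPM, by 94 bases.

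Both atypical E2Fs rose, and both were below 1 TPM in YAP5SA-S94A. E2f7 (chromosome 7, 46150533 to 46192739, plus strand) stood at 2.87 and 2.17 TPM in YAP5SA against 0.372 and 0.615 TPM in YAP5SA-S94A, a ratio of group means of 5.11. E2f8 (chromosome 1, 98565717 to 98584265, minus strand) stood at 2.93 and 2.75 TPM in YAP5SA against 0.693 and 0.512 TPM in YAP5SA-S94A, a ratio of 4.71. In both genes every YAP5SA library lay above 2 TPM and every YAP5SA-S94A library below 1 TPM. The log2 fold change was 1.24 for E2f7 (SE 0.27, limma adjusted p = 0.0117). For E2f8 the log2 fold change was 1.26 (SE 0.25, limma adjusted p = 0.00763). The ratios of TPM are larger than these values because the pseudocount of 1 compresses low levels, and with a pseudocount of 0.1 the log2 fold changes were 2.16 and 2.08. The read coverage behind them was thin, with 5.78 and 3.26 reads per base over E2f7 in YAP5SA and 0.734 and 1.20 in YAP5SA-S94A. E2f7 and E2f8 reached the minimum of 1 TPM for testing only through their YAP5SA libraries.

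The DP partners leaned in opposite directions, and neither was called. Tfdp1, which encodes the main partner DP1 (chromosome 16, 76162040 to 76200871, minus strand), stood at 59.5 and 54.2 TPM in YAP5SA against 45.2 and 44.4 TPM in YAP5SA-S94A. The groups did not overlap, and the log2 fold change of 0.34 lay just outside the threshold (95% interval 0.077 to 0.59, limma adjusted p = 0.0532). Tfdp1 was called higher without YAP5SA replicate 2 (log2 fold change 0.40, limma adjusted p = 0.025). Tfdp2, which encodes DP2 (chromosome 8, 96760459 to 96901466, plus strand), stood at 4.48 and 3.58 TPM in YAP5SA against 6.12 and 5.52 TPM in YAP5SA-S94A (log2 fold change −0.44, 95% interval −0.91 to 0.024, limma adjusted p = 0.13). The TPM ratio of Tfdp1 to Tfdp2 was 13.3 and 15.1 in YAP5SA and 7.39 and 8.04 in YAP5SA-S94A. The size of this ratio is uncertain, since mean coverage per gigabase was 16.6 and 0.335 in YAP5SA and 13.6 and 0.499 in YAP5SA-S94A.

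**Figure D2:**
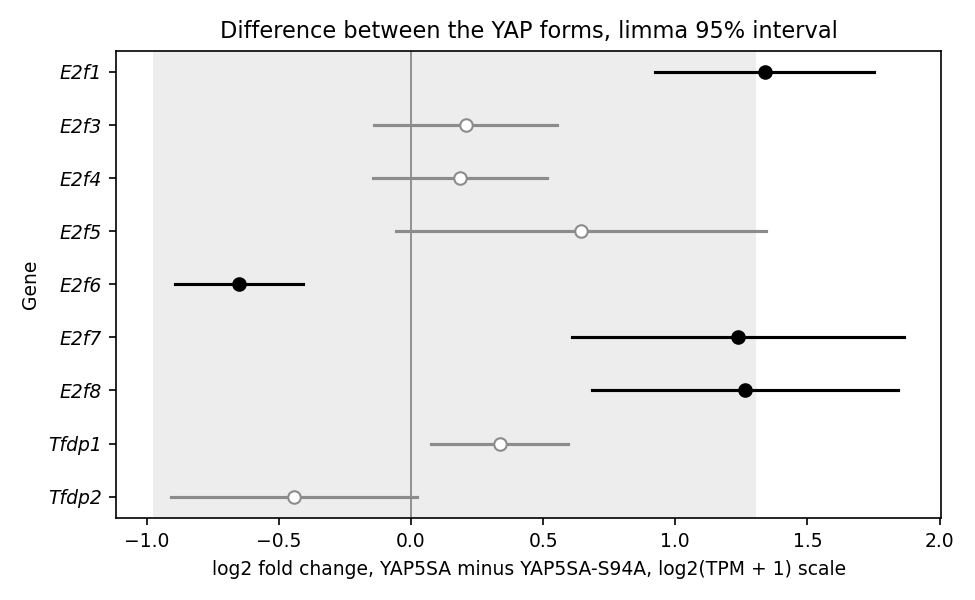
Log2 fold change (YAP5SA minus YAP5SA-S94A, log2(TPM + 1) scale) of the 9 tested genes with its limma 95% interval, filled black where called and open grey where not, over a grey band from the 5th to the 95th percentile of all 13420 tested genes (−0.97 to 1.30). E2f1 lies just above the band at 1.34, with E2f7 and E2f8 just inside its upper edge.

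In all, 4 of the 9 tested genes were called, 3 of them higher and 1 lower in YAP5SA. Over all 13420 tested genes 32.9% were called, 17.4% higher and 15.5% lower. The libraries of the forms did not overlap in 8 of the 9, against 68.2% of all tested genes. In 6 of the 8 YAP5SA was the higher form and in 2 the lower, against 34.5% and 33.8% of all tested genes. Because E2f7 and E2f8 could pass the filter only where they were high, these shares are not read further. The 4 calls were kept without any of the 4 libraries in turn, and the log2 fold changes then ranged from 1.16 to 1.51 for E2f1, from −0.68 to −0.63 for E2f6 and from 1.18 to 1.34 for E2f8, and that of E2f7 was at least 1.09.

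The summed E2F transcript level was close between the forms while its make-up differed. E2f1 to E2f8 together took 118 and 107 TPM in YAP5SA and 116 and 114 TPM in YAP5SA-S94A. Activators made up 27.9% and 26.0% of that sum in YAP5SA against 14.6% and 15.0% in YAP5SA-S94A. E2f4, E2f5 and E2f6 together made up 67.2% and 69.4% in YAP5SA against 84.5% and 84.0% in YAP5SA-S94A. Among them only E2f6 had the lower share in YAP5SA, with a mean of 39.7% against 61.2% in YAP5SA-S94A. The mean shares of E2f4 (24.0% against 20.6%) and E2f5 (4.55% against 2.52%) were higher in YAP5SA. The atypical genes made up 4.90% and 4.61% in YAP5SA against 0.916% and 0.986% in YAP5SA-S94A. By TPM, E2f6 transcripts outnumbered those of E2f1 by 2.25 and 2.99 to 1 in YAP5SA and by 11.2 and 11.6 to 1 in YAP5SA-S94A. The sizes of these shares and ratios are uncertain, because the levels of E2f1 and E2f3 relative to other genes are. Mean coverage per gigabase was 16.3 for E2f6 and 3.12 for E2f1 in YAP5SA, and 26.3 and 1.22 in YAP5SA-S94A.

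By mean TPM the order of levels changed in 4 places. In YAP5SA the mean TPM ran Tfdp1, E2f6, E2f4, E2f1, E2f3, E2f5, Tfdp2, E2f8, E2f7 and E2f2, with overlapping libraries between E2f5 and Tfdp2 and between E2f8 and E2f7. In YAP5SA-S94A it ran E2f6, Tfdp1, E2f4, E2f3, E2f1, Tfdp2, E2f5, E2f2, E2f8 and E2f7, with overlaps between E2f2 and E2f8 and between E2f8 and E2f7. Tfdp1 and E2f6 traded the top place, E2f1 and E2f3 the next places after E2f4, and E2f5 and Tfdp2 the pair after those, while E2f2 stood last in YAP5SA. The place of E2f3 depends on the column read. Its coverage was only 1.65 and 1.26 reads per base in YAP5SA and 1.32 and 1.30 in YAP5SA-S94A, below the 2.92 reads per base of E2f2 in YAP5SA replicate 1. Its ratio of coverage to FPKM was 6.49% to 6.93% of the highest common ratio in the tables, against 98.0% to 98.4% for E2f4. By the same measure Tfdp2 stood at 20.9% to 21.8%, E2f1 at 45.5% to 51.7% and Tfdp1 at 75.0% to 77.4%. The levels of E2f1, E2f3, Tfdp1 and Tfdp2 relative to the others are therefore uncertain. In coverage per gigabase Tfdp1 lay above E2f6 in YAP5SA replicate 1 (18.0 against 16.9) but below it in replicate 2 (15.3 against 15.7). Mean coverage per gigabase was higher for E2f1 than for E2f3 in YAP5SA-S94A too (1.22 against 0.263). It was likewise higher for E2f5 than for Tfdp2 (1.14 against 0.499), so these trades were seen in TPM only. Between the forms, the coverage of E2f1 per gigabase was 2.56 times as high in YAP5SA as in YAP5SA-S94A, close to its TPM ratio of 2.80.

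**Figure D3:**
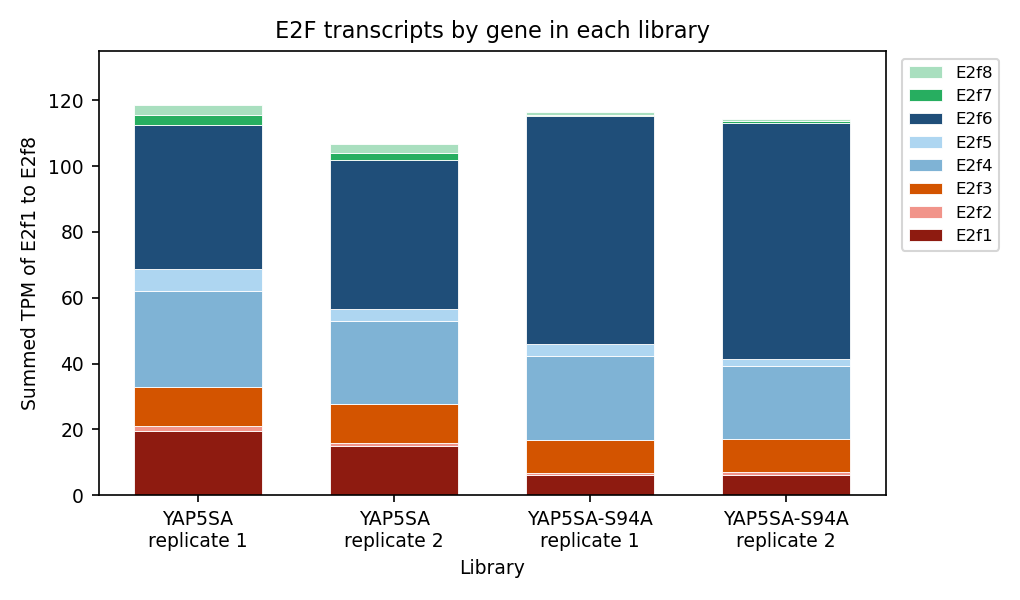
Stacked bars of the summed TPM of E2f1 to E2f8 in each library, YAP5SA left of YAP5SA-S94A, with a colour for each gene. The bars reach 107 to 118 TPM, with more E2f1 (dark red) and less E2f6 (dark blue) in YAP5SA.

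Promoter windows, 250 bases before to 50 after the transcript start, were in the RefSeq table (GRCr8) for 5 of the 10 genes, E2f3, E2f6, E2f7, Tfdp1 and Tfdp2, and not for E2f1, E2f2, E2f4, E2f5 and E2f8. They were searched on both strands for the E2F site written as TTTCCCGC, TTTGGCGC, TTTCGCGC or TTTGCCGC, the CHR element TTTGAA, the TEAD site GGAATG and the CCAAT box. An E2F site was found in E2f3 alone, at bases −78 to −71 from the start, and in 2.14% of all 33469 windows. GGAATG was in none of the 5 and in 14.2% of all windows. E2f7 held 2 CCAAT boxes and E2f3 held 3, an element found in 37.5% of all windows. TTTGAA was in E2f3, Tfdp1 and Tfdp2 and in 18.3% of all windows. The windows of E2f7, a called gene, and of E2f3, which carries the E2F site, are shown 5′ to 3′ on the gene's strand with E2F sites and CCAAT boxes of either strand in capitals (E2f7 at chr7:48036653-48036952, E2f3 at chr17:34810166-34810465, both plus strand, GRCr8).
E2f7: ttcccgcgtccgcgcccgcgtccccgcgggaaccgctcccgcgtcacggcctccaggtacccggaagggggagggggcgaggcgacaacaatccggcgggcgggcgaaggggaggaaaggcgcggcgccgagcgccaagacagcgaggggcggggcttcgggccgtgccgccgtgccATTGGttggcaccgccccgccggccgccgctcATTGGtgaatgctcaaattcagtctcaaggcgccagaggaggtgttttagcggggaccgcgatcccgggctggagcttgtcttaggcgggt
E2f3: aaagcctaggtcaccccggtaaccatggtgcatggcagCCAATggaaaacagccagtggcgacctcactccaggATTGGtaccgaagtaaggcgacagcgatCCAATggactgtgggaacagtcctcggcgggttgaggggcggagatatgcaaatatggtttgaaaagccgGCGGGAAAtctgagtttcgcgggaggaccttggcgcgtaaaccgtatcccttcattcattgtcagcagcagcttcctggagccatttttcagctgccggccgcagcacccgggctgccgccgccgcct

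Upstream of the E2Fs, pocket protein genes were lower and cyclin D genes higher in YAP5SA. Rb1, the retinoblastoma gene, fell to 25.02 ± 2.63 TPM in YAP5SA, against 35.7 ± 0.41 TPM in YAP5SA-S94A (a log2 change of −0.50 at a limma adjusted p = 0.0222). Rbl2, which encodes p130, fell to 10.4 ± 0.72 TPM in YAP5SA, against 16.8 ± 0.71 TPM in YAP5SA-S94A (−0.64, limma adjusted p = 0.0141). Rbl1, which encodes p107, was not called, with 5.01 ± 0.093 TPM in YAP5SA and 5.05 ± 0.52 TPM in YAP5SA-S94A (limma adjusted p = 0.984). Thus 2 of 3 pocket protein genes fell and 0 rose, but 0 were called without either YAP5SA-S94A library. Rb1 overlaps Lpar6 on the opposite strand by 1810 bases, at 16.6 and 19.1 TPM in YAP5SA against 5.30 and 4.001 TPM in YAP5SA-S94A, and Rbl2 overlaps Aktip by 272 bases.

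Of 15 cyclins, kinases and inhibitors that act on the pocket proteins, 8 rose and 2 fell. Over all tested genes 17.4% rose and 15.5% fell, the shares to set beside this and the other lists. Their median log2 fold change was 0.39. The cyclin D genes Ccnd1 and Ccnd3 stood at 186 ± 3.62 and 298 ± 78.5 TPM in YAP5SA and at 78.7 ± 0.55 and 103 ± 9.27 TPM in YAP5SA-S94A. Cdk6, a kinase that partners with D cyclins, rose by 1.56 on the log2 scale, with 24.7 ± 2.36 TPM in YAP5SA and 7.65 ± 0.15 TPM in YAP5SA-S94A (limma adjusted p = 3.39e-04). Its relative Cdk4, at 207 ± 23.6 TPM in YAP5SA against 206 ± 2.95 TPM in YAP5SA-S94A, was not called (log2 fold change 0.0054, limma adjusted p = 0.975), nor was Cdk2 (0.25, limma adjusted p = 0.198). The inhibitor genes Cdkn1b (p27) and Cdkn1c (p57) fell by 0.88 and 0.57 on the log2 scale. The inhibitor genes Cdkn1a (p21) and Cdkn2b (p15), named after their values were seen, were among those that rose, by 0.44 and 0.85 (limma adjusted p = 0.0399 and 0.00207). Without YAP5SA-S94A replicate 1 the count that rose was 5, and without replicate 2 it was 4.

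Pocket proteins and E2F4 repress as part of a complex with the MuvB core, which can also join activating partners. Of 7 genes for the MuvB core and its activating partners, 2 rose and 2 fell, with a median of −0.051, which turned to 0.085 without YAP5SA-S94A replicate 1 and to 0.025 without YAP5SA replicate 2. The 2 that rose were the activating partners Mybl2 (B-Myb), at 13.97 ± 0.92 TPM in YAP5SA against 3.70 ± 0.55 TPM in YAP5SA-S94A, and Foxm1, at 9.51 ± 0.53 TPM in YAP5SA against 4.85 ± 0.82 TPM in YAP5SA-S94A. The 2 that fell were the core genes Lin9 (log2 fold change −0.85) and Rbbp4 (−0.32), while Lin37 (−0.051), Lin52 (−0.21) and Lin54 (0.32, named after its value was seen) were not called. With no intensity trend in the fit 0 genes of the list fell. Without either YAP5SA-S94A library 1 gene fell, and without its replicate 1 only 1 rose. Of 5 genes that act in E2F degradation, 3 rose and 0 fell, with a median of 1.29. Skp2, a ubiquitin ligase subunit that targets E2F1 and is itself an E2F target, rose by 2.34, with 16.7 ± 0.32 TPM in YAP5SA and 2.48 ± 0.17 TPM in YAP5SA-S94A (limma adjusted p = 1.00e-04). Ccnf, the cyclin F subunit that targets E2F1, E2F7 and E2F8, rose by 1.29 and Cdc20 by 1.91. Fzr1 (0.61, limma adjusted p = 0.0685) and Btrc (−0.096, limma adjusted p = 0.744) were not called.

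Genes that E2Fs are known to activate at the start of S phase were mostly higher in YAP5SA. Of 50 listed and tested, 28 rose and 1 fell, with a median log2 fold change of 0.67 against 0.00015 over all tested genes. Rrm2, a subunit of ribonucleotide reductase, stood at 73.6 ± 2.12 TPM in YAP5SA against 14.3 ± 1.54 TPM in YAP5SA-S94A, the thymidine kinase gene Tk1 at 34.0 ± 0.19 TPM in YAP5SA against 10.1 ± 0.49 TPM in YAP5SA-S94A and the dUTPase gene Dut at 184 ± 11.4 TPM in YAP5SA against 94.5 ± 1.02 TPM in YAP5SA-S94A. The gene that fell was Ung, the uracil-DNA glycosylase gene, with 14.5 ± 1.47 TPM in YAP5SA and 25.8 ± 0.11 TPM in YAP5SA-S94A (a change of −0.80, limma adjusted p = 0.0046). Abundant targets that were not called included Rrm1, the other subunit of ribonucleotide reductase, with 98.2 ± 8.15 TPM in YAP5SA and 97.0 ± 1.34 TPM in YAP5SA-S94A (limma adjusted p = 0.923). The thymidylate synthase gene Tyms was not called either, with 75.1 ± 5.44 TPM in YAP5SA and 71.5 ± 2.01 TPM in YAP5SA-S94A (limma adjusted p = 0.661). The list shares Ccne1 and Ccne2 with the cyclin list, Mybl2 with the MuvB list and Rbl1 with the pocket proteins. It was drawn up with earlier results of these libraries known, so its direction is not independent evidence. The count that rose was 19 and 20 without YAP5SA-S94A replicates 1 and 2, and 18 with no filter on low values.

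The E2F site was common in the promoters of these targets, both among those that rose and among those that did not. It was in 23 of the 41 windows available for the list (56.1%), against 2.14% of all windows. All genes of the list were tested, and among all 10491 tested genes with a window 435 held a site. Of the 23 targets with a site 9 rose and 1 fell (median 0.25), and of the 18 without a site 13 rose and 0 fell (median 0.72), a difference that was not tested. Outside the list and the E2F and DP genes, 20.7% of 411 tested genes with a site rose and 10.2% fell, against 17.5% and 15.8% of 10034 tested genes with no site. For each gene shown, the site nearest the transcript start is in capitals, with 9 bases on each side. The bases run 5′ to 3′ on the gene's strand. Mcm5 held 3 sites, Mcm6 held 2, and Ung and Tyms held 1 each. The other site of Mcm6, TTTGGCGC, overlaps the one in capitals and stands partly in lower case. Ung and Tyms were named above. Mcm5 and Mcm6 were chosen after their values were seen, as the 2 called targets with a site and the smallest p. Mcm5 and Mcm6 encode subunits of the replicative helicase. Their log2 fold changes were 1.20 and 1.00 (limma adjusted p = 0.0013 and 0.00171). The windows lie in GRCr8 (Mcm5 at chr19:13488796-13488821, plus strand, Mcm6 at chr13:42404471-42404496, minus strand, Ung at chr12:48154049-48154074, minus strand, Tyms at chr9:120776104-120776129, minus strand).
Mcm5: aggttggttTTTCCCGCgaaagtcgg
Mcm6: ctgcttttgGCGCGAAAttagcgtgt
Ung: gggaacagtTTTGCCGCgaaaagccc
Tyms: ggtgcgggtTTTGGCGCcgactacac

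**Figure D4:**
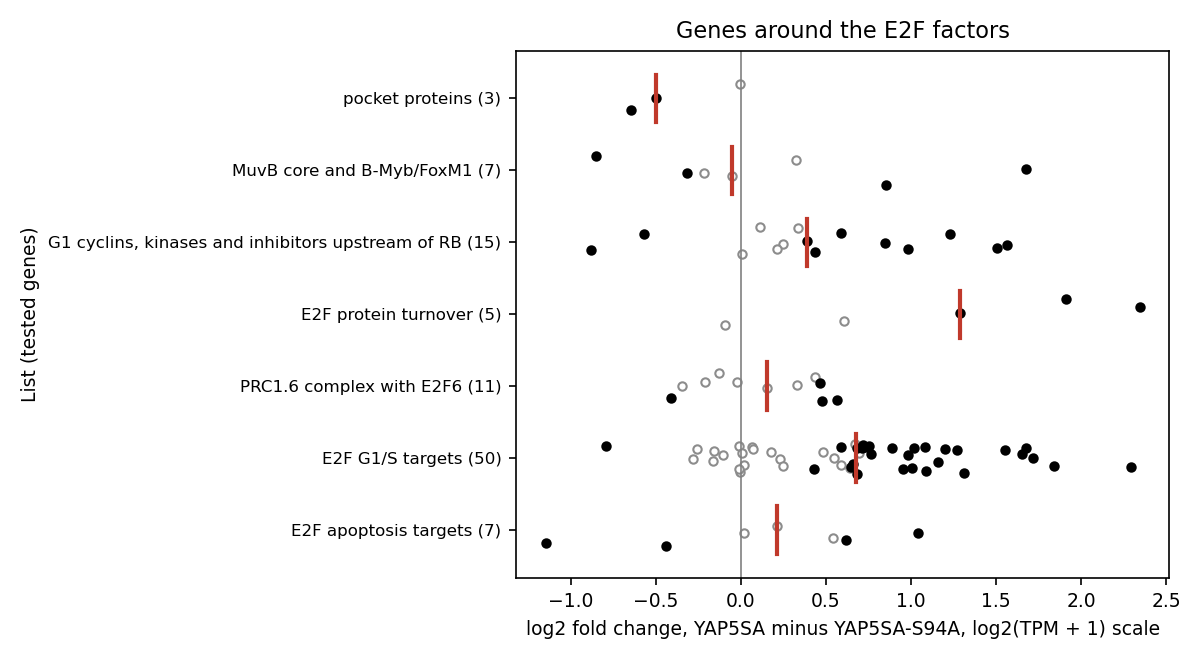
Log2 fold change (YAP5SA minus YAP5SA-S94A, log2(TPM + 1) scale) of each tested gene in 7 lists, filled black where called and open grey where not, with a red line at the list's median. The S phase targets of E2F lie mostly to the right of 0, with a median of 0.67, and the pocket protein genes lie at or to the left of 0.

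E2F6 acts in a variant Polycomb complex, whose genes moved both ways. Of its 11 listed genes 3 rose and 1 fell, with a median of 0.16, where 17.4% of all tested genes rose and 15.5% fell. Hdac1, a histone deacetylase gene, rose by 0.57, the ubiquitin ligase gene Rnf2 by 0.48 and the heterochromatin protein gene Cbx3 by 0.46, and Max, a dimer partner of MGA in the complex, fell by 0.41. Hdac2 (−0.21, limma adjusted p = 0.123) and Ring1 (−0.13, limma adjusted p = 0.607) were not called. Without YAP5SA-S94A replicate 2 the counts were 0 and 0, and without replicate 1 the number that fell was 0. Germline genes that E2F6 is known to silence in other tissues of the mouse were near 0 in both forms. Of 12 listed, 0 reached a mean of 1 TPM over the 4 libraries and 7 were listed at 0 in every library. The highest was Tdrd1, at 0.103 and 0.252 TPM in YAP5SA against 1.40 and 0.773 TPM in YAP5SA-S94A. The 6 genes through which E2F4 and E2F5 drive cilia formation in other cells were likewise below 1 TPM in every library.

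Targets through which E2F1 can promote cell death moved both ways. Of 7 tested genes 2 rose and 2 fell, with a median of 0.21, and Tp73 and Hrk were below the minimum for testing. The shares over all tested genes were 17.4% higher and 15.5% lower. Pmaip1 (Noxa) stood at 16.2 ± 1.37 TPM in YAP5SA against 7.35 ± 0.40 TPM in YAP5SA-S94A, and Apaf1, which encodes the apoptosome scaffold, at 14.5 ± 2.99 TPM in YAP5SA against 8.98 ± 0.29 TPM in YAP5SA-S94A. Bcl2l11 (Bim) stood at 8.54 ± 0.58 TPM in YAP5SA against 20.2 ± 2.11 TPM in YAP5SA-S94A. Bbc3 (Puma), at 60.4 and 31.6 TPM in YAP5SA against 30.6 and 28.9 TPM in YAP5SA-S94A, was not called (limma adjusted p = 0.164). Bbc3 was high in YAP5SA replicate 1 alone. The call of Apaf1 was lost without either YAP5SA-S94A library and without YAP5SA replicate 2. The median of the list lay between 0.023 and 0.58 with a library left out, the lowest without YAP5SA-S94A replicate 2 and the highest without replicate 1.

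The profiles nearest to those of E2f1, E2f7 and E2f8 over the 4 libraries were sought among all tested genes, by the Euclidean distance between log2(TPM + 1) values centred on each gene's mean. For E2f1 they included LOC100361913 (distance 0.080) and Snord86 (0.091). For E2f7 they were Fbn2 (0.058), Sema4a (0.066) and C9h6orf132 (0.067), and for E2f8 Mcam (0.045), Ppip5k1 (0.048) and Myadm (0.053). Seen from E2f1, E2f7 ranked 53rd at 0.200 and E2f8 103rd at 0.245. With 4 libraries in 2 groups such a distance mostly reflects the size of the difference between the forms.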

How the data were processed

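RNA was measured by sequencing of directional libraries from poly(A) RNA, per the labels' protocols. Reads were handled with StringTie 2.2.1, HISAT2 2.2.1 and fastp on the rat build rn7, per the submitters' processing notes, which give no settings. Each deposited table held 40903 entries. The TPM values were computed by the authors and sum to 1000000 in each table. FPKM, also deposited by the authors, stood in a constant ratio to TPM in each library. The deposited coverage, per the file headers, is the read coverage per base, not scaled for depth. Depth was read from the highest common ratio of coverage to FPKM. Whether the authors' counting used strand is not given in the sources used here, so a gene that overlaps an expressed gene on the other strand is uncertain, and reads of close paralogs may be shared.

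Entries with the same gene name were summed. The test was limma 3.58.1 (R 4.3.3) with an intensity trend, applied to log2(TPM + 1) of the 13420 genes whose TPM averaged 1 or more. It had 2 residual degrees of freedom and 5.09 from the prior, with the Benjamini-Hochberg adjustment and a threshold of 0.05. The E2F and DP genes, the lists and the markers were chosen with earlier results of these data known. Named were all 10 genes and, in each list, up to 3 called genes with the smallest p in each direction and up to 2 abundant ones not called; a few genes that this rule names are not reported here. In simulated data with 200 changed genes among 13420 the fit recovered 96% of changes of 1 and 100% of changes of 2 on the log2 scale, with 0 false calls. Values were drawn independently for each gene, with a spread set by its level alone. The changed genes all had a mean log2(TPM + 1) above 1. Recovery and false calls among genes of unequal spread at the same level were therefore not tested. The alternatives tried changed the unit, the scaling, the filter, the pseudocount and the variance model, with further fits leaving out each library, and a block for the replicate number. Promoter windows are from RefSeq (GRCr8), a later build than that of the tables. Tables and figures were made with matplotlib 3.10.9, numpy 2.4.6 and pandas 2.3.3 in Python 3.11.15.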

Additional observations from a re-analysis of the deposited data

How the results depend on the processing

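The direction of each of the 9 tested E2F and DP genes was the same in every alternative that tested it. E2f1, E2f6, E2f7 and E2f8 were called in every alternative that tested them. The adjusted p ranged up to 0.0171 for E2f1, 0.0277 for E2f6, 0.0339 for E2f7 and 0.0214 for E2f8. With coverage over aligned sequence, an alternative added after seeing the data, E2f3 and Tfdp2 fell below the minimum and were not tested. With a mean TPM of at least 5 the same held for E2f5 and Tfdp2. E2f7 and E2f8 fell below the minimum in both of these runs and with FPKM, and were not tested there. The number of the 10 genes called was then 2 with FPKM and 2 with coverage, with 1 higher in each, and it was 4 to 5 with a library left out (3 to 4 higher). Tfdp1 was called with a mean TPM of at least 5 (log2 fold change 0.34, adjusted p = 0.0481), with median-of-ratios scaling (0.33, adjusted p = 0.0425), with quantile normalization (0.33, adjusted p = 0.0447) and with the replicate block (0.34, adjusted p = 0.0407), its log2 fold change ranged from 0.27 to 0.40 with a library left out, and its adjusted p over all alternatives from 0.025 to 0.337. E2f5 was called with the replicate block (0.64, adjusted p = 0.0402; over all alternatives 0.0402 to 0.485), and its log2 fold change ranged from 0.30 to 0.98 with a library left out. The block raised the count of these genes called higher to 5 and that of all genes called to 5319, against 4420 without it. The labels do not say what the replicate numbers share, the library names number them differently, and the deviations of same-numbered libraries correlated at r = 0.101 across 13420 genes, which are not independent replicates. The number of all genes called lower was 1312 to 2739 with a library left out, the lowest without YAP5SA-S94A replicate 1 and 1314 without replicate 2, against 2083 with all 4.

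The ratio of summed TPM of the activators was 1.78 and ranged from 1.63 to 1.93 with a library left out. That of E2f4 to E2f6 together was 0.791, where E2f6 alone was at 0.632, E2f4 at 1.14 and E2f5 at 1.78. The ratio of the 3 together was 0.762 to 0.819 with a library left out, and 0.752 with the mitochondrial chromosome left out. That chromosome's share of TPM in replicates 1 and 2 was 7.53% and 10.2% for YAP5SA, against 12.6% and 14.0% for YAP5SA-S94A. With no filter on low values, 1 pocket protein gene fell, 1 MuvB gene rose and 1 fell, and 1 apoptosis gene rose and 1 fell. No scaling moved the median of all tested genes by more than 0.1. The alternatives were followed for 41 list genes, those that the naming rule picks together with Mcm5 and Mcm6. Mcm5 and Mcm6, chosen after their values were seen, were called in every alternative. Of the 41 genes 28 were called, 16 of them in every alternative that tested them. None of the 28 had the opposite direction in any alternative. Directions of genes not called did not all hold. Without YAP5SA replicate 1, Cdk4 stood at 190.5 TPM in YAP5SA, below the 203.7 and 207.9 TPM in YAP5SA-S94A. Each lone library left in a group is assumed to vary like the others. The simulated data held no changes as small as those of E2f3 and E2f4, so the power to detect them was not tested.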
